A study of Mus musculus with 10 samples.

Results

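The 4 libraries of mouse 8-cell embryos depleted of either Klf5 or Tfap2c were set as one side against the 2 control libraries, and the genes described here are those in which all 4 knockdown libraries lay on the same side of both controls. Of 24421 genes in the deposited tables, 10464 reached 1 linear abundance unit in at least 2 of the 6 libraries and were tested. In 1454 of them (13.9%) all 4 knockdown libraries lay above both controls, and in 1478 (14.1%) all 4 lay below, so 2932 genes (28.0%) were separated in this sense. A separated gene is counted below as a member only where the average difference of the knockdowns from control also passed limma, a linear model fitted across all tested genes, at a Benjamini-Hochberg adjusted p under 0.05. The average passed in 978 genes higher (9.35%) and 1179 lower (11.3%), separated or not. Both conditions together left 745 genes higher (7.12%) and 906 lower (8.66%), 1651 in all (15.8%). The difference of each knockdown by itself from control did not have to pass.

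The libraries are of total RNA from BDF1 embryos at the 8-cell stage. The 3 groups of 2 libraries are labelled Control, Klf5 KD (siKlf5, a small interfering RNA against Klf5) and Tfap2c KD (siTfap2c), and the labels do not say what the control embryos received. The control columns stand in a table with 4 libraries of embryos that carry knockouts of Tfap2c motifs (Arpc1bE_CdxE1_KO and CdxE2_KO), whereas each knockdown has a table of its own, so the deposited table and the treatment cannot be told apart, nor can the target and small interfering RNA as such. All RNA of the embryos was pooled, so fewer cells of a type and less RNA per cell cannot be told apart. In all 6 libraries the markers fixed for the stage, Pou5f1, Tfap2c, Cdh1, Klf5, Nanog and Cdx2, were above 0.

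Klf5 is a zinc finger transcription factor of the Krüppel-like family, which binds GC-rich and CACCC-type elements. Tfap2c belongs to the AP-2 family, whose dimers bind a GC-rich palindrome. In the mouse embryo both factors are known for their part in the first lineage choice, in which the blastomeres compact, acquire an apical actin-rich domain and give rise to the trophectoderm, the outer epithelium of the blastocyst, and to the inner cell mass.

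The targets themselves were checked first. Klf5 (chromosome 14, 99298691 to 99315036 on mm10) stood at 7.20 and 7.13 log2 units in the controls, at 4.37 and 4.17 in siKlf5 and at 5.32 and 5.45 in siTfap2c. It was thus below both controls in all 4 knockdown libraries, lowest under its own knockdown, with an average log2 difference of -2.34 (SE 0.08, adjusted p = 1.2e-05). Tfap2c stood at 6.61 in both controls, at 6.51 and 6.57 in siKlf5 and at 3.94 and 4.09 in siTfap2c. Its average of -1.33 (adjusted p = 4.3e-05) came almost wholly from its own knockdown, since the siKlf5 libraries were lower by 0.07 on average. Tfap2c therefore passed the rule by a margin of only 0.04 log2 units, and it was not separated after each library was centred on its median.

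The lower genes outnumbered the higher ones and lay further from control. Among the 906 lower members the median average difference was -0.58 log2 units, and 139 reached a fall of at least 1 log2 unit. Among the 745 higher members the median was 0.45 and 24 reached a rise of 1. The margin, the log2 distance between the knockdown library and the control library nearest to each other, was at least 0.5 in 143 lower and 40 higher members, and its median was 0.22 and 0.16. When each library was first centred on its median, 901 genes were higher and 791 lower, so the side with more genes turned with that scaling. Genes near the edge of the rule had margins close to 0, such as Rab39 (0.000315) and Psd4 (0.000571) just inside and Rrn3 (-0.000111) and Cpsf3l (-0.000191) just outside.

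The genes described next were taken from members whose higher side averaged at least 10 linear units, with unnamed gene models and microRNAs left out; some members below that level, such as Cmip, had margins as wide. Within this selection the widest margin after Klf5 belonged to Lasp1, which encodes an actin-binding adaptor of the cell cortex (chromosome 11, 97799000 to 97838764). It stood at 5.94 and 5.75 log2 units in the controls, at 4.28 and 3.79 in siKlf5 and at 2.83 and 2.85 in siTfap2c, an average difference of -2.41 (SE 0.13, adjusted p = 5.5e-05). The order control, siKlf5, siTfap2c held without overlap. Steap3, a ferrireductase of the endosomal iron pathway (chromosome 1, 120190757 to 120272705), stood at 6.69 and 6.59 in the controls, at 5.18 and 5.06 in siKlf5 and at 5.17 and 5.03 in siTfap2c. Its average difference was -1.53 (SE 0.07, adjusted p = 3.9e-05), and here the 4 knockdown libraries overlapped one another fully.

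Grb7, an adaptor of receptor tyrosine kinases, stood at 3.85 and 3.45 in the controls, 2.01 and 2.18 in siKlf5 and 0.82 and 1.27 in siTfap2c. Tagln2, which encodes the actin-binding protein transgelin 2, stood at 3.93 and 3.42 in the controls, 2.14 and 2.22 in siKlf5 and 0.95 and 1.06 in siTfap2c. Both averaged -2.08 (adjusted p = 0.00028 and 0.00021), with siTfap2c the lower group. Ahnak, a very large scaffold protein of the plasma membrane, stood at 4.44 and 4.37 in the controls, 3.13 and 2.97 in siKlf5 and 3.19 and 2.83 in siTfap2c, an average of -1.38 (adjusted p = 0.00035). Net1, an exchange factor for small GTPases, stood at 4.07 and 4.05 in the controls, 2.95 and 2.93 in siKlf5 and 2.90 and 2.83 in siTfap2c, an average of -1.16 (adjusted p = 0.00021). In Ahnak and Net1 the knockdowns lay together and far from control.

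Actn1, the actin crosslinker alpha-actinin 1 (chromosome 12, 80167547 to 80260371), was the one of these genes besides Klf5 with siKlf5 below siTfap2c by a difference that passed the test. It stood at 5.01 and 4.99 in the controls, at 3.15 and 3.22 in siKlf5 and at 3.94 and 4.01 in siTfap2c, an average of -1.42 (adjusted p = 5.3e-05), and the knockdowns differed by 0.80 (adjusted p = 0.00042). Tfcp2l1, a transcription factor of the pluripotency network, stood at 4.21 and 3.82 in the controls, 2.75 and 2.64 in siKlf5 and 1.92 and 2.08 in siTfap2c, an average of -1.67 (adjusted p = 0.00023). Sfrp1, a secreted Wnt antagonist, Rtn4r, the receptor for Nogo, and Sync, an intermediate filament protein, complete the 12 lower genes with the widest margins in this selection, with averages of -1.24, -1.19 and -1.15. All 12 kept their call without any 1 of the 6 libraries, but they were picked for wide margins in these same libraries.

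**Figure D1:**
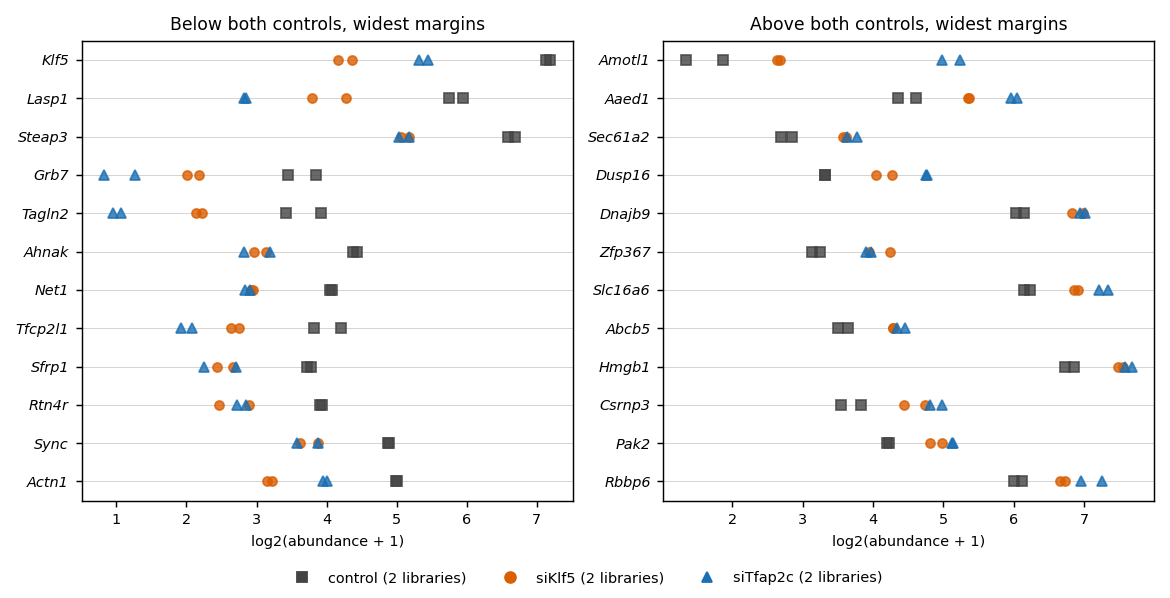
Deposited log2(abundance + 1) in each library for the 12 lower (left) and 12 higher (right) members of at least 10 linear units with the widest margins; squares are control, circles siKlf5 and triangles siTfap2c, 2 libraries each. In each row the squares stand apart from all other symbols, by the most in Klf5 among the lower and in Amotl1 among the higher genes.

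The higher genes with wide margins were of smaller fold, apart from Amotl1, which encodes an angiomotin-like partner of Yap at junctions (chromosome 9, 14541966 to 14645056). It stood at 1.88 and 1.34 in the controls, at 2.68 and 2.64 in siKlf5 and at 4.98 and 5.24 in siTfap2c, an average of 2.28 (SE 0.15, adjusted p = 0.00015). The siTfap2c libraries were higher than the siKlf5 ones by 2.45 (adjusted p = 6.2e-05). Dnajb9, a chaperone cofactor of the endoplasmic reticulum, stood at 6.15 and 6.03 in the controls, 6.83 and 6.98 in siKlf5 and 7.01 and 6.94 in siTfap2c, an average of 0.85 (SE 0.07, adjusted p = 0.00022). Hmgb1, an abundant chromatin protein, stood at 6.73 and 6.86 in the controls, 7.48 and 7.55 in siKlf5 and 7.58 and 7.68 in siTfap2c, an average of 0.78 (adjusted p = 0.00022). Both lay about equally high in the knockdowns.

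Dusp16, a phosphatase of MAP kinases, was at 3.32 in both controls, at 4.27 and 4.04 in siKlf5 and at 4.76 and 4.77 in siTfap2c (average 1.14, adjusted p = 0.00022). Sec61a2, a paralog of the channel subunit of the endoplasmic reticulum translocon, averaged 0.88, the cell cycle transcription factor Zfp367 0.82, the transporters Slc16a6 and Abcb5 0.89 and 0.76, Aaed1 1.20, Csrnp3 1.06, the p21-activated kinase Pak2 0.80 and the pre-mRNA and ubiquitin ligase factor Rbbp6 0.83. None of these 12 higher genes lost its call when any 1 of the 6 libraries was left out. Their choice by call and margin in the same libraries favours this, so it is no separate support.

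Promoters of 4 of the lower genes and 1 higher gene are printed to show how unlike they are in the letters that the Krüppel-like and AP-2 families are known to bind. Each run holds the 250 bases before the first listed RefSeq start of the gene (GRCm38.p6), 5′ to 3′ on the gene's strand, and capitals mark matches to GGGNGNGG on either strand, overlapping matches joined. Actn1 (chr12:80260364-80260613, minus strand) held 5 matches, Sync (chr4:129287371-129287620, plus) 7, Tfcp2l1 (chr1:118627695-118627944, plus) 2, Lasp1 (chr11:97799315-97799564, plus) 1 and Dnajb9 (chr12:44210069-44210318, minus) 0. Among genes not printed, the higher genes Dusp16 and Amotl1 held 8 and 2 in their 250 bases, and the lower gene Net1 held 0. Over 300 bases, 8 of the 9 lower and 6 of the 9 higher genes of widest margin with a promoter held a match.
Actn1: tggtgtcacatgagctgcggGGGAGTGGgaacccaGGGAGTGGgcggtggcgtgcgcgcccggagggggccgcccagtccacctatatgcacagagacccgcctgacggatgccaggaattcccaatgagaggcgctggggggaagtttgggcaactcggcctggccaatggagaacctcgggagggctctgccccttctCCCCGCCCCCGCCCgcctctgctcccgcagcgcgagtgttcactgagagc
Sync: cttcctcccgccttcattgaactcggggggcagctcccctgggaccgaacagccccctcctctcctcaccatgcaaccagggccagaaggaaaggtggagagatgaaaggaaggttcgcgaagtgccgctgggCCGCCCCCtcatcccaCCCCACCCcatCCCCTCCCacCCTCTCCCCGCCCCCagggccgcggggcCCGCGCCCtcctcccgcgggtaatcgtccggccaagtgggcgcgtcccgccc
Tfcp2l1: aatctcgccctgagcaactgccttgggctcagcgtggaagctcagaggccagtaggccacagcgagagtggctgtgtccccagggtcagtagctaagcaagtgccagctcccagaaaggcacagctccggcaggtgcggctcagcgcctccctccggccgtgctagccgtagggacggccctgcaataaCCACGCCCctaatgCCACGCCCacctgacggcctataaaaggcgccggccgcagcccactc
Lasp1: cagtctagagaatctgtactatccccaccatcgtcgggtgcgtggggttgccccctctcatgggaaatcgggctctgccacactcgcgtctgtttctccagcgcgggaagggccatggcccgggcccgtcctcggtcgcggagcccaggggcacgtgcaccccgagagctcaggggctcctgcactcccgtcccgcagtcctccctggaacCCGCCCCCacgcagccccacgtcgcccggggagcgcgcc
Dnajb9: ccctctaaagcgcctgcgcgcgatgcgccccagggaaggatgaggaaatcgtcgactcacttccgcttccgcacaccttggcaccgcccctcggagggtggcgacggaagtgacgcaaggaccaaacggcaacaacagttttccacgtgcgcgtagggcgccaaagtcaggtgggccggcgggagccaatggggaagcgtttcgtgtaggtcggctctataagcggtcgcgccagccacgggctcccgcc
The Tfcp2l1 run also held one match to the AP-2 type palindrome GCCNNNGGC, 231 to 223 bases before the start, and that of Dnajb9 held one 16 to 8 bases before it.

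Counted over whole promoters of 300 bases (250 before to 50 after the start, both strands), GGGNGNGG was in 77.6% of the 661 lower members with a RefSeq promoter, in 67.7% of the 558 higher members and in 68.7% of all 7778 tested genes with one. GCCNNNGGC was in 26.5%, 25.8% and 25.6%. The median GC content was 62.0%, 61.7% and 61.3%. A match of letters is a description of the window and not a binding site.

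Pooling the knockdowns joined genes of very unlike balance. The direct comparison of siTfap2c with siKlf5, which uses no control library, called 3407 of the tested genes (32.6%), 1991 higher (19.0%) and 1416 lower (13.5%) in siTfap2c. Among the lower members the median difference from control was -0.46 in siKlf5 and -0.67 in siTfap2c, and the siTfap2c change was the larger in 635 of 906. Where the difference passed, siTfap2c was the further from control in 343 lower members and siKlf5 in 90. Among the higher members the medians were 0.33 and 0.55, siTfap2c was further in 562 of 745, and where the difference passed the counts were 265 and 34. Called genes that were not separated numbered 233 higher and 273 lower, and in 209 and 226 of them siTfap2c was the further from control. 

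The members with the largest differences show this. Tfeb, a master regulator of lysosome genes, stood at 6.03 and 6.24 in the controls, at 5.86 and 5.92 in siKlf5 and at 2.45 and 2.75 in siTfap2c. It lay close to control in siKlf5, and the difference between the knockdowns was -3.29 (adjusted p = 2.7e-06). Arpc1b, an Arp2/3 subunit, and Ckb, the brain type creatine kinase, followed with -3.00 and -2.78.

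In the other direction Serpinb6a, a serine protease inhibitor, stood at 3.66 and 3.51 in the controls, at 1.83 and 1.91 in siKlf5 and at 3.36 and 3.21 in siTfap2c, so it was the siKlf5 libraries that were low (difference 1.42, adjusted p = 0.00012). Uchl1, a ubiquitin hydrolase abundant in oocytes, and Slc19a3, a thiamine transporter, were members on the higher side with siTfap2c above siKlf5 by 1.40 and 1.34. At the other end of the scale, the difference between the knockdowns did not pass in Steap3 (-0.02, 95% interval -0.21 to 0.17), Ahnak (-0.04, -0.36 to 0.27), Net1 (-0.07, -0.30 to 0.16) and Sync (-0.02, -0.31 to 0.28). In Dnajb9 it was 0.07 (-0.10 to 0.24) and in Hmgb1 0.12 (-0.04 to 0.28).

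**Figure D2:**
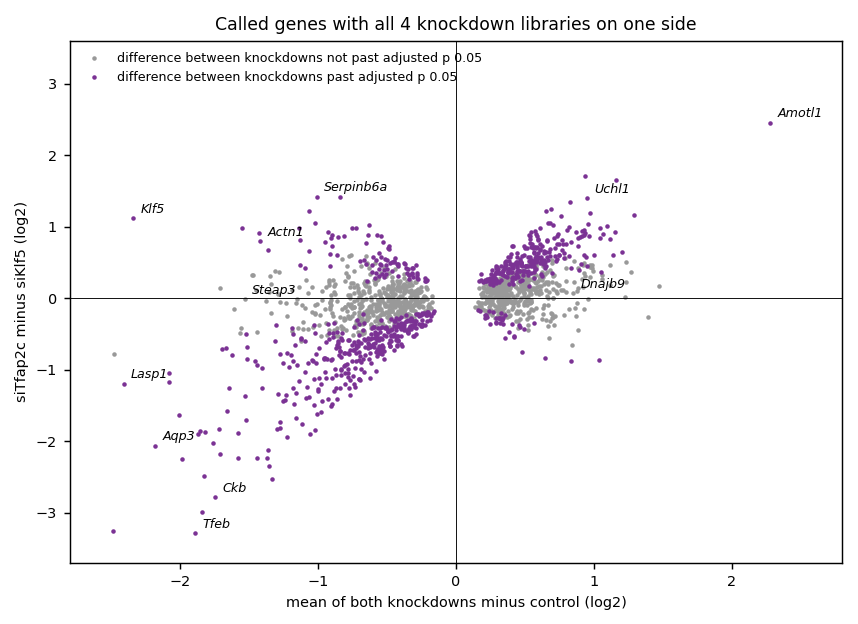
Each point is one of the 1651 members: the average difference of both knockdowns from control (x, log2) against siTfap2c minus siKlf5 (y, log2), purple where that difference passed an adjusted p of 0.05. Lower members spread down to Tfeb at -3.29 and higher ones up to Amotl1 at 2.45, whereas Steap3 and Dnajb9 lie near 0 on the y axis.

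A stricter view treats the 4 knockdown libraries as replicates of one group, so that any difference between the knockdowns adds to the spread. That fit called 23 genes, 4 higher and 19 lower, and all 23 were also called as above; 1510 genes had an unadjusted p under 0.05. Among the genes already described it held Steap3 (adjusted p = 0.0077), Net1 (0.034), Ahnak (0.045), Dnajb9 (0.047), and Rtn4r, Sync and Hmgb1 (0.0498 each). Others, named after their values were seen, were Cmip, the Cdc42 effector Cdc42ep4, the cytoskeletal linker Plec, the filamin-binding Fblim1, the endocytic adaptor Hip1 and Jarid2, a cofactor of Polycomb complex PRC2. Cmip had an adjusted p of 0.034 and the rest of these 0.0498, so most of the calls named here lay just under the threshold of 0.05. Cdc42ep4 stood at 3.30 and 3.39 in the controls and at 1.80 to 2.16 in the knockdown libraries, and Jarid2 at 7.54 and 7.52 against 6.54 to 6.86.

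Of 48 tested genes of the actin cytoskeleton, 25 were lower members and 0 higher (52.1%, beside 8.66% of all tested genes), and the median average difference over the 48 was -0.27, beside 0.01 over all tested genes. Without 1 library the count of lower members ran from 17 to 22 and was 23 after centring on medians. The other 23 did not meet both conditions. Myh9, a non-muscle myosin heavy chain, averaged 0.15 and did not pass.

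Actb, the main cytoplasmic actin, stood at 8.29 and 8.33 in the controls, 7.79 and 7.70 in siKlf5 and 7.51 and 7.53 in siTfap2c (average -0.68, adjusted p = 0.00018). The non-muscle myosin Myh10 averaged -0.89, the membrane linker moesin (Msn) -0.90, the filamin Flna -0.74, Zyx -0.77, Vasp -0.74 and vinculin (Vcl) -0.68. Of the 8 subunits of the Arp2/3 complex, which starts branched filaments, 3 were lower members: Arpc1b (-1.84), Arpc5 (-0.70) and Arpc4 (-0.32). Arpc1b fell mainly in siTfap2c (-0.35 in siKlf5, -3.34 in siTfap2c), while Msn had -0.89 and -0.92. Cnn3, a calponin, was the one called riser of the list and was not separated, since it was below control in siKlf5.

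Of 30 genes of cell polarity and junctions, 13 were lower members (43.3%) and 1 was higher, with a median of -0.25. The count of lower members was 6 without control replicate 1 and 7 without control replicate 2. Cdh1, the E-cadherin of compaction, stood at 6.31 and 6.27 in the controls, 5.82 and 5.67 in siKlf5 and 5.85 and 5.90 in siTfap2c (average -0.48, adjusted p = 0.0018). Pard6b, a core polarity protein of the apical domain, stood at 2.72 and 2.51 in the controls, 1.54 and 1.63 in siKlf5 and 1.56 and 1.82 in siTfap2c (average -0.97, adjusted p = 0.0021). In both genes the knockdowns lay close together.

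The tight junction scaffold cingulin (Cgn, -0.56), alpha-catenin (Ctnna1, -0.51) and the kinase Prkcz (-0.47) were also lower members. Cldn4, a claudin, was lower in both but unequally (-0.86 in siKlf5, -3.12 in siTfap2c). Beta-catenin (Ctnnb1) was the one higher member, by 0.24 (adjusted p = 0.044), and it was no longer a member without any 1 of the libraries other than siKlf5 replicate 1.

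Of 19 genes of the trophectoderm program, which holds the target Tfap2c itself, 7 were lower members (36.8%) and 1 was higher. The median was -0.60, with -0.21 in siKlf5 and -0.74 in siTfap2c. Cdx2, the transcription factor of the trophectoderm lineage, stood at 2.35 and 2.48 in the controls, 1.15 and 1.23 in siKlf5 and 0.23 and 0.57 in siTfap2c, an average of -1.62 (adjusted p = 0.00039). Tead4, the DNA-binding partner of Yap, stood at 6.53 and 6.46, at 6.16 and 6.04 and at 5.62 and 5.77 in the same order (average -0.60, adjusted p = 0.00098). Both followed the order control, siKlf5, siTfap2c. Aqp3, a water and glycerol channel, averaged -2.18 and the keratin Krt18 -0.70. Another 6 called lower, among them Fgfr2, Krt8 and Gata3, were not separated, and Lrp2, an endocytic receptor, was the higher member (0.70).

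Of 25 tested genes of pluripotency and the inner cell mass, 12 were lower members (48.0%) and 2 were higher. The median was -0.33, with -0.12 in siKlf5 and -0.51 in siTfap2c. Without control replicate 1 there were 7 lower members. Nanog stood at 3.95 and 3.45 in the controls, 3.02 and 2.67 in siKlf5 and 2.83 and 2.61 in siTfap2c (average -0.92, adjusted p = 0.0071). The nuclear receptor Nr5a2 stood at 9.13 and 9.15, at 8.63 and 8.70 and at 8.68 and 8.59 in the same order (average -0.49). For these the knockdowns lay together.

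Others fell mostly in siTfap2c: Pou5f1 had -0.21 in siKlf5 and -1.47 in siTfap2c, the Nodal co-receptor Tdgf1 -0.92 and -2.82, threonine dehydrogenase (Tdh) -1.02 and -2.27. The higher members were Klf17 (0.82) and Klf2 (0.34). These belong to the Klf and Sp family too, where 6 of 15 were lower members, the target Klf5 among them, and 2 were higher; without control replicate 1 the lower count was 3. Klf8 had -1.26 in siKlf5 and -0.54 in siTfap2c, and Klf10 -0.55 and -1.91.

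**Figure D3:**
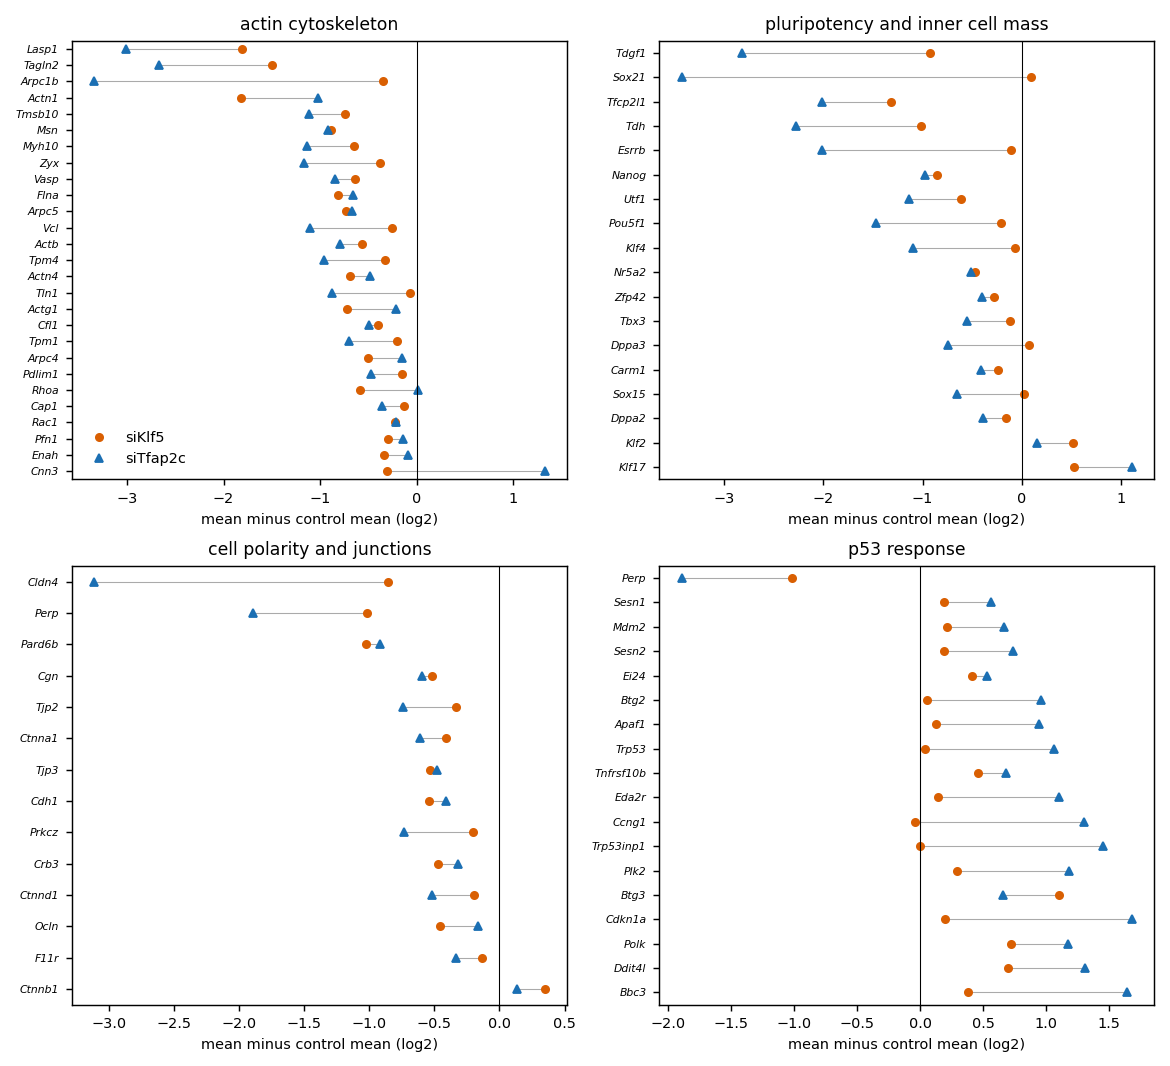
Called genes of 4 lists (1 actin gene is not shown), each with its mean difference from control (log2) in siKlf5 (circle) and siTfap2c (triangle), 2 libraries a group. Actin and junction genes lie mostly left of 0 in both knockdowns, whereas several p53 genes, such as Trp53 and Cdkn1a, lie right of 0 in siTfap2c and near 0 in siKlf5.

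The p53 list showed the clearest count on the higher side. Of 31 genes tested, 10 were higher members (32.3%, beside 7.12% of all) and 1 was lower, with a median of 0.44. That median was 0.10 in siKlf5 and 0.66 in siTfap2c, and another 7 genes were called higher without being separated, Trp53 and the cell cycle inhibitor Cdkn1a among them. Cdkn1a stood at 3.41 and 3.12 in the controls, 3.59 and 3.33 in siKlf5 and 4.94 and 4.95 in siTfap2c, so siKlf5 and control overlapped. Polk, a DNA polymerase that copies past lesions, stood at 2.0 and 2.02 in the controls, 2.75 and 2.71 in siKlf5 and 3.21 and 3.15 in siTfap2c (average 0.95, adjusted p = 0.00063). Btg3, an antiproliferative factor, was higher in siKlf5 by 1.10 and in siTfap2c by 0.66, Ei24 by 0.41 and 0.53 and Mdm2, the ligase that limits p53, by 0.22 and 0.66. The lower member was Perp (-1.46), a membrane protein of cell junctions.

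Heat shock and unfolded protein response genes held 6 higher and 0 lower members of 29 (20.7%), which was 3 higher without control replicate 1. Besides Dnajb9 these were Hspa5, the main chaperone of the endoplasmic reticulum (0.71 in siKlf5 and 0.27 in siTfap2c), Hspb1 (0.36 on average), Hspa1a, Hspa1b and Ddit4, an inhibitor of mTOR signalling (0.80). Of 85 cytosolic ribosomal protein genes, 10 were higher members (11.8%, beside 7.12% of all tested genes) and 0 lower, with a median of 0.11. The higher count ran from 2 to 11 without 1 library (2 without control replicate 2, 3 without siTfap2c replicate 2, 4 without control replicate 1 or siTfap2c replicate 1, 6 without siKlf5 replicate 2). Rpl15, with the largest average (0.96, adjusted p = 0.033), had controls at 6.83 and 7.99 and lost its call without any 1 of the 4 knockdown libraries. Small nucleolar RNAs, which sit in host genes and may share their reads, held 10 higher (11.1%) and 4 lower (4.44%) members of 90, beside 7.12% and 8.66% of all tested genes. Without control replicate 2 or siTfap2c replicate 1 the higher count was 6, and the lower count was 2 without either control and 7 without siKlf5 replicate 1.

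Replication-dependent histone genes lay on the lower side, with 19 lower members (29.7%) and 1 higher of 64 and a median of -0.25. Of 16 genes for H2B 9 were lower members, and of the other 48 it was 10, a split made after the values were seen. Hist1h2be stood at 7.70 and 8.01 in the controls, 7.14 and 6.97 in siKlf5 and 7.17 and 7.01 in siTfap2c (average -0.78, adjusted p = 0.0013). These genes are near-identical copies whose reads the authors' pipeline may have split, so single values are uncertain. Of 37 lysosome genes 12 were lower members (32.4%) and 4 higher (2 without either control or either siTfap2c library). The lower ones held the regulators Tfeb (-1.89) and Tfe3 (-0.49), prosaposin (Psap, -0.64) and the cathepsins Ctsh (-0.90) and Ctsc (-0.42), whereas cathepsin L (Ctsl) was higher by 0.49.

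Signalling lists gave fewer members than the actin list. Of 29 genes of receptor tyrosine kinase and MAPK signalling 5 were lower (17.2%) and 2 higher (6.90%) members. Among all tested genes the shares were 8.66% and 7.12%. The receptor Erbb2 had -1.63 in siKlf5 and -0.65 in siTfap2c, while Dusp6 and Etv5, known targets of the pathway, averaged -1.04 and -0.83. Other genes of the list did not follow these falls in both knockdowns. The averages of Spry4 (-0.01), Spry2 (-0.24), Spred1 (-0.25) and Dusp4 (0.14) did not pass. Spry2 had 0.23 in siKlf5 and -0.71 in siTfap2c, Spred1 0.77 and -1.26, and Dusp4 0.46 and -0.18. Il17rd was called higher (0.91) without being separated, with -0.13 in siKlf5 and 1.96 in siTfap2c. Of 25 Hippo genes 4 were lower and 1 higher, with a median of 0.01. Within the angiomotin family, whose members bind Yap at junctions, Amotl1 rose, Amot fell almost wholly in siTfap2c (-0.25 in siKlf5, -2.49 in siTfap2c) and Amotl2 fell by 0.71 in siKlf5 and by 0.37 in siTfap2c. Vgll4, a competitor of Yap on Tead factors, had -0.92 and -1.13. Of 23 Nodal and BMP genes 3 were lower (13.0%) and 2 higher (8.70%), the latter Cited2 (1.11) and Gdf11 (0.72).

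Of 10 ion and water transport genes 3 were lower (30.0%) and 2 higher (20.0%), beside 8.66% and 7.12% of all tested genes. Of 10 DNA methylation genes 2 were lower (20.0%), Dnmt3b (-1.21) and Tet2 (-0.54). Basement membrane and integrin genes had 3 lower (15.8%) and 1 higher (5.26%) of 19, with Itga3 at -1.18 and the collagen hydroxylase P4ha2 at 0.79. Glutathione and redox genes had 2 lower (11.76%) and 3 higher (17.65%) of 17, with Gpx1 at -0.70 and Gclc, which starts glutathione synthesis, at 1.05. Sterol and fatty acid synthesis had 3 lower and 3 higher of 28 (10.7% each), with the farnesyl diphosphate synthase Fdps at 0.72. In primitive endoderm genes it was 1 lower and 1 higher of 7 (14.3% each). In glycolysis it was 2 lower (10.5%) and 0 higher of 19, with hexokinase 1 (Hk1) at -0.79. Counts this small move with single libraries: without control replicate 1 the sterol list had 0 lower members and the redox list 1 higher, and without siKlf5 replicate 2 the Hippo list had 4 higher.

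Some lists lay near or under the background of all tested genes. DNA replication had 4 lower (9.09%) and 3 higher (6.82%) of 44, and cell cycle 2 (5.56%) and 1 (2.78%) of 36. Oxidative phosphorylation had 3 and 3 of 78 (3.85% each). RNA polymerase subunits had 2 lower (7.69%) and 3 higher (11.5%, beside 7.12% of all tested genes) of 26. Oocyte-inherited transcripts had 0 lower and 1 higher of 21 and 2-cell-stage transcripts 0 and 1 of 12. The summed levels ran from 489.8 to 495.8 linear units in control, 495.1 to 545.8 in siKlf5 and 342.9 to 380.3 in siTfap2c for the oocyte list. For the 2-cell list they ran from 1047 to 1158, 1090 to 1190 and 1119 to 1140. Interferon response genes had 0 of 6, and the AP-2 family held Tfap2c as the 1 lower member of 2.

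Other cells that could travel with embryos were looked for by their markers. Of 20 cumulus and granulosa genes 4 were tested and 0 were called. Fshr, Inha, Lhcgr and Dcn were at 0 in all 6 libraries, and the summed level of the list ran from 428.9 to 454.0 linear units in control, 434.7 to 456.4 in siKlf5 and 382.3 to 403.6 in siTfap2c. Of 13 sperm and spermatid genes 1 was tested and 0 were called, with Tnp1, Akap4 and Smcp at 0 and sums from 12.1 to 18.2. In the cumulus and sperm lists the genes at 0 are only part of those listed, and the other members carried the whole sums. Whether these sums came from such cells or from the embryos was not tested. The oocyte and cumulus sums were lowest in siTfap2c, and their part in the results was not tested.

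**Figure D4:**
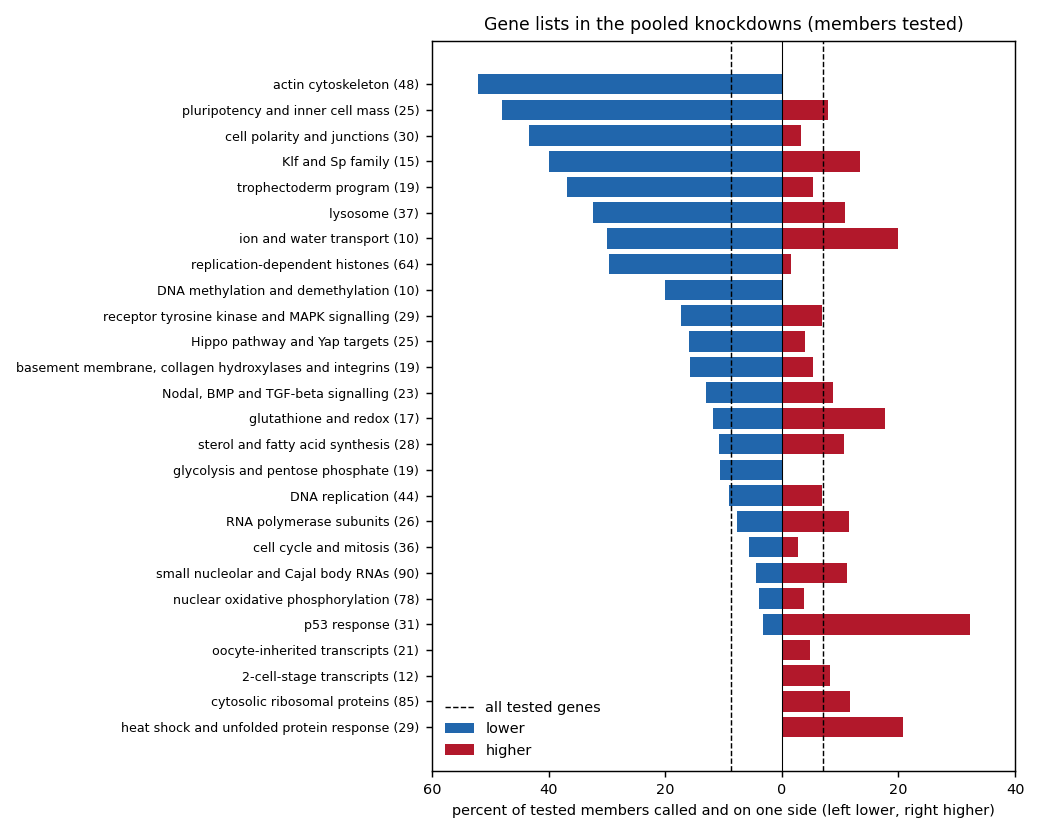
Share of tested members (number in brackets) of each list with at least 10 that were lower (blue, left) or higher (red, right) members, in percent; dashed lines mark 8.66% and 7.12%, the shares among all tested genes. Actin cytoskeleton has the longest bar to the left (52.1%) and p53 response the longest to the right (32.3%).

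The 4 motif knockout libraries, which share a table with the controls but sit higher on the scale (medians of 3.35 to 3.40 log2 units over tested genes, beside 2.99 to 3.08 in the 6 libraries), give a further set of embryos without a knockdown. After centring each library on its median, the 4 knockdown libraries lay below all 4 motif knockouts in 825 tested genes (7.88%) and above them in 1556 (14.9%). Of the 906 lower members, 308 (34.0%) were also below all 4 and 15 (1.66%) above. Of the 745 higher members, 379 (50.9%) were above all 4 and 11 (1.48%) below. Without centring, 692 lower members (76.4%, beside 36.0% of all tested genes) were below, and 82 of the 745 higher members were above, beside 1.64%. Members were chosen by these same knockdown values. Shares larger than among all tested genes therefore follow in part from that choice and are no separate support.

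For single genes the deposited values, not centred on medians, were as follows. The motif knockouts sit higher on this scale (medians of 3.35 to 3.40 log2 units, beside 2.99 to 3.08). Small gaps to control or knockdown values, as in Ahnak, Ctsl and Tfcp2l1, can therefore come from the scale. Lasp1 stood at 5.55 to 6.03 in the motif knockouts and Actn1 at 4.99 to 5.13, close to control and far above the knockdowns. Other lower genes were not close to control in the motif knockouts. Steap3 stood at 5.87 to 6.33, Tfcp2l1 at 2.78 to 3.73 and Rtn4r at 3.355 to 3.56, below both controls and above the knockdowns. Ahnak stood at 4.56 to 5.11, above both controls. Dnajb9 stood at 6.50 to 6.79 there, between its control and knockdown values, and Cdx2 at 0.77 to 1.53, below both controls and overlapping the siKlf5 values. The labels of both motif knockouts hold the letters CdxE, so Cdx2 may be a target of the edits in these embryos. Ctsl stood at 9.25 to 9.42, above its knockdown values. The p53 gene Polk stood at 2.78 to 3.37, about as high as in the knockdowns.

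Depth could not be read from the tables, which hold no counts. The linear values of the 6 libraries summed to between 388454 and 395401 units, and the ribosomal RNA precursor Rn45s held 5.61% to 7.03%. Exact zeros made up 26.0% and 27.4% of values in the controls, 31.2% and 31.7% in siKlf5 and 28.4% and 29.6% in siTfap2c. All 4 knockdown libraries thus held more zeros than both controls, and the part of this in the results was not tested. A value of 0 can be a failed estimate, since Gapdh is listed at 0 to 0.76 log2 units. Replicate correlations over tested genes were 0.991 to 0.992. The labels do not say that replicates were separate embryo pools, so the p-values rest on a spread between libraries that may be technical only.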

How the data were processed

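The authors deposited gene abundances on a log2 scale. A constant of 1 was taken as added before the log, because the tables hold exact zeros and no value below 0. Per the submitters' processing notes, the build was mm10 and the tools StringTie 1.3.4, Cufflinks, HISAT2 2.1.0 and SAMtools 1.7, and the kind of abundance is not given in the sources used here. Per the labels' protocols, embryos freed of zona and polar bodies gave random-primed total RNA libraries, depleted of ribosomal cDNA.

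The 3 tables were joined by symbol. A gene was kept where 2 or more of the 6 libraries held 1 linear unit or more. The fit was made in R 4.3.3 by limma 3.58.1, with 3 groups and an eBayes trend; the average contrast weighs both knockdowns equally, and all adjusted p-values are Benjamini-Hochberg over 10464 genes. Differences are on the log2(value + 1) scale, which understates changes of low genes. The fit was also run on simulated data with equal changes in both knockdowns. That setting is unlike the genes that differed between the knockdowns, so it says nothing about them. Positions are from GENCODE M21.

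Genes were named by rule: the targets; among members with a higher side of at least 10 linear units and without Gm, LOC, Mir, Rik or -ps symbols, the 12 widest margins each way and the 4 largest knockdown differences each way; and up to 4 members of each of 31 lists by margin. Other list genes, and the genes of the 2-group fit, were named after their values were seen. Some genes that the rule names are not reported here. Members and lists were chosen with earlier results of these data known. Alternatives covered scaling, filter, added constant, trend, all 10 libraries, a replicate block, 2 groups and leaving out each library.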

Additional observations from a re-analysis of the deposited data

Results flagged for a closer look

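Each result here differed between the knockdowns by the direct limma comparison of siTfap2c with siKlf5. That comparison called 3407 of 10464 tested genes. Among members, Amotl1 was higher in siTfap2c by 2.45 log2 units, Serpinb6a by 1.42, Uchl1 by 1.40 and Slc19a3 by 1.34. The difference was -3.29 in Tfeb, -3.00 in Arpc1b and -2.78 in Ckb. All 7 lay on the same side of control in all 4 knockdown libraries, so pooling gave them an average that neither knockdown shows: 2.28 in Amotl1, where siKlf5 had 1.05 and siTfap2c 3.50, and -1.75 in Ckb.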

How the results depend on the processing

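With the 4 knockdown libraries as 1 group, limma called 4 genes higher and 19 lower, all 23 of them separated, since the difference between the knockdowns then enters the spread. Without a filter on low values 370 members were higher and 664 lower, 454 and 783 genes were called, and 2438 were separated lower. With a filter at 5 linear units, which tests fewer genes, 970 were separated lower. Leaving out 1 library gave 318 to 725 higher and 491 to 888 lower members, 343 to 845 called higher and 568 to 1060 called lower, 1634 to 2468 separated higher and 1712 to 2370 separated lower, and 2114 to 3277 genes that differed between the knockdowns. The lowest counts of members came without control replicate 1, and without control replicate 2 they were 434 and 548. Without siTfap2c replicate 1 they were 476 and 708. Replicate numbers did not pair the libraries (correlations of deviations -0.02, 0.02 and -0.02), and a replicate block gave 617 higher and 820 lower members. Other constants, no trend, all 10 libraries and centring moved the counts by under 1.5 times. Of 106 named genes, 74 kept their call without each library and 0 turned direction in any setting. The 32 that lost it were members of lists, such as Hspa5, Rpl15 and Tnfrsf10b, and none of the 24 with the widest margins, which were picked by margin in these same libraries. Depth is unknown, and 2 controls limit every margin.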
